A study of Homo sapiens with 12 samples.

Results

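The genes described here are 10 interferon-stimulated genes: IFIT1, IFIT2, IFIT3 and IFIT5, IFITM1, IFITM2 and IFITM3, ISG15, IFI35 and CMPK2. They were picked by name from the 60660 Ensembl identifiers counted in 12 RNA-seq libraries, because several of them had been seen at lower levels in every knockdown of the study, so their differences from the control are given as a description without p-values. The study asked how the arginine methyltransferase CARM1 and the NuRD complex, a chromatin remodelling and deacetylase complex, control transcription. HEK293T cells, a line that goes back to human embryonic kidney cells, were transfected with a control siRNA (siCTL) or with siRNA against CARM1, CHD4, HDAC2, GATAD2A or KDM1A, with 2 libraries in each of the 6 groups. HEK293T is the name in the labels, whereas the paper names HEK293 cells. CHD4 is the ATPase of NuRD, HDAC2 is a histone deacetylase, GATAD2A is a structural subunit and KDM1A is a histone demethylase found with the complex. All 6 groups have the genotype WT in the labels and were grown in DMEM with serum. Apart from the siRNA, no interferon, virus or other agent is named in the labels for any group. The levels given below are those of transfected cells, since none of the 6 groups was left untransfected. The time after transfection is not given in the labels. The labels do not say whether the 2 libraries of a group came from separate cultures, so the errors measure only the spread between these libraries, which may be technical.

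Interferons bind receptors on the cell surface, the receptor-bound kinases JAK1 and TYK2 then phosphorylate STAT proteins such as STAT2, and these enter the nucleus together with IRF9 and bind a DNA element called the interferon-stimulated response element (ISRE). Many cells keep a low level of these transcripts without added interferon. The IFIT proteins bind RNA with ends that mark it as foreign, the IFITM proteins sit in membranes and hinder the entry of enveloped viruses, ISG15 is a ubiquitin-like protein that is joined to other proteins, IFI35 is a leucine zipper protein that binds NMI, and CMPK2 is a nucleotide kinase of mitochondria.

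On GRCh37 the 4 IFIT genes lie in 1 region on the plus strand of chromosome 10, with IFIT2 at 91043451 to 91069028, IFIT3 at 91087064 to 91137230, IFIT1 at 91152303 to 91166244 and IFIT5 at 91174325 to 91181362. The 3 IFITM genes are neighbours on chromosome 11, where IFITM2 spans 303655 to 309397 and IFITM1 spans 310041 to 315272 on the plus strand, and IFITM3 spans 319676 to 329475 on the minus strand. ISG15 lies on chromosome 1 at 936518 to 949920, IFI35 on chromosome 17 at 41158757 to 41166473, and CMPK2 on the minus strand of chromosome 2 at 6980701 to 7006766. These are whole genes with exons and introns, and a count covers the exons.

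The promoters of these genes are shown because the ISRE is the element that the STAT proteins bind together with IRF9. RefSeq windows from 250 bases before to 50 bases after a transcript start, on GRCh38.p14, were at hand for 8 of the 10 genes, with IFIT2 and IFITM2 not among them, and gave 11 windows. They were searched for the ISRE core GAAANNGAAA on both strands, where it reads TTTCNNTTTC on the opposite strand, and for the gamma-activated sequence (GAS) core TTCNNNGAA, which reads the same on both strands. A match describes the letters in a window and is not by itself a binding site. Variants of a core were not searched, so a window without a match may still hold one. In the 5 windows printed here, each from 5′ to 3′ on the strand of the gene, capitals mark the bases of a match, which is an ISRE core in the windows of IFIT1, IFIT5, IFITM3 and ISG15 and a GAS core in that of IFI35. In the ISG15 window 2 overlapping ISRE cores form a single run of capitals.
IFIT1, chr10:89392373-89392672, plus strand: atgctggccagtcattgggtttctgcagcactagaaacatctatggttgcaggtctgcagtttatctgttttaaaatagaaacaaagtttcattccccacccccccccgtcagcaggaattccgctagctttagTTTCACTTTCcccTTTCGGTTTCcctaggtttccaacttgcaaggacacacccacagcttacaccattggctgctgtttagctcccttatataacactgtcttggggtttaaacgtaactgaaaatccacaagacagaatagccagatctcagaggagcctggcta
IFIT5, chr10:89414318-89414617, plus strand: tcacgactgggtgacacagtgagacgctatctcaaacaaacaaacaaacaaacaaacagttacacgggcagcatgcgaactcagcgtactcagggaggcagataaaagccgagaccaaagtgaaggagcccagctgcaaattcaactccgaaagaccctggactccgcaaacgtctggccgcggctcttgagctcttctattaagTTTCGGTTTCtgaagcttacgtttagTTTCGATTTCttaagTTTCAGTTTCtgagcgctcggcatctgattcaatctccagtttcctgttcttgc
IFITM3, chr11:320811-321110, minus strand: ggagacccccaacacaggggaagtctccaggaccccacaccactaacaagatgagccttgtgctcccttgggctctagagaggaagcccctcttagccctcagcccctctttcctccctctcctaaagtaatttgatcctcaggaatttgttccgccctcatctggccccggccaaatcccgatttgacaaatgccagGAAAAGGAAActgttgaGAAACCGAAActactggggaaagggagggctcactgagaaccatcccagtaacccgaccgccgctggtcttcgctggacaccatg
ISG15, chr1:1013247-1013546, plus strand: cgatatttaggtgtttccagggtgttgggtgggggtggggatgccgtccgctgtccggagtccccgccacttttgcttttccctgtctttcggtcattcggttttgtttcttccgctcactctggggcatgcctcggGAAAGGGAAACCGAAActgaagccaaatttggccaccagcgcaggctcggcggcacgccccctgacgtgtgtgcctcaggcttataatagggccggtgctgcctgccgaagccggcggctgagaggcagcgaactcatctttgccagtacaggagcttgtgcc
IFI35, chr17:43006534-43006833, plus strand: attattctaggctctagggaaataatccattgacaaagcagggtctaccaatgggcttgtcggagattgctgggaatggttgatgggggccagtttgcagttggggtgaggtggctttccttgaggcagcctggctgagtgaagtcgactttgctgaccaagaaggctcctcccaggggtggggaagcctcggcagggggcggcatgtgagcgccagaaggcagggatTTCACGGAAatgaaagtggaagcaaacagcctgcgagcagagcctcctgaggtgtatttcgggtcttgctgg

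An ISRE core was present in the windows of 6 of the 8 genes, namely IFIT1, IFIT3, IFIT5, IFITM1, IFITM3 and ISG15, and each of the 6 held at least 2. Of all 35116 RefSeq promoter windows of the same length, 3.57% held at least 1 ISRE core and 0.259% held at least 2. The GAS core was found in IFITM1, where it overlaps an ISRE core, and in IFI35, against 7.66% of all windows. None of the 3 windows of CMPK2 held either motif. The plot of the matches shows that the ISRE cores lay between 156 bases before and 5 bases after a transcript start.

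**Figure D1:**
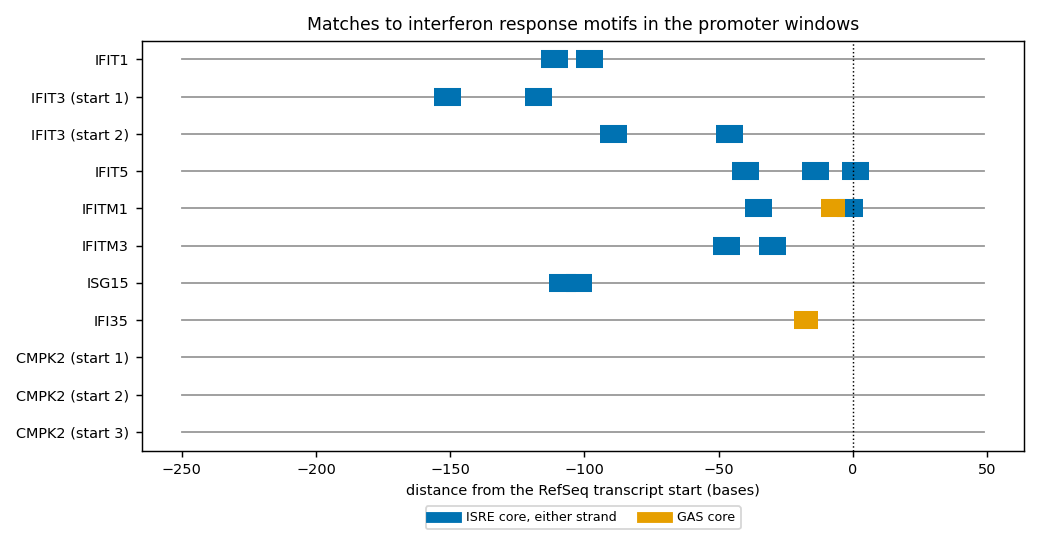
Matches to the ISRE core (blue) and the GAS core (orange) in the 11 RefSeq promoter windows of 8 genes, with the distance from the transcript start in bases on the horizontal axis and 1 line for each window. The 6 genes with an ISRE core each hold at least 2 matches, IFI35 holds 1 GAS core, and the 3 CMPK2 windows hold none.

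The libraries held 19308315 to 28648657 counts on genes, with a median of 24292682. Of the 5 targeted genes, the log2 fold change in its own knockdown was -2.37 for CARM1, -2.35 for HDAC2, -1.74 for GATAD2A and -2.59 for KDM1A, and the smallest was that of CHD4, at -0.54, from 39.5 and 39.7 CPM in siCTL to 26.7 and 27.9 CPM in siCHD4. Some targets also moved in other knockdowns. GATAD2A was at 371 and 368 CPM in siCHD4 against 182 and 166 in siCTL. CHD4 was at 32.6 and 30.7 CPM in siCARM1. CARM1 was at 157 and 146 CPM in siKDM1A against 127 and 125 in siCTL. The part of these changes in the differences between groups was not tested. The keratins KRT8 and KRT18, vimentin and the neurofilament NEFL, which HEK293 cells express, were abundant in every library, whereas NEFM, INA and PAX2 had at most 102 counts in any library. PTPRC and TYROBP, which define leukocytes, had at most 1 count in any library, and LYZ had at most 5. Over 6 leukocyte markers (PTPRC, TYROBP, LYZ, CD14, CD3E and CSF1R), which each had a count in some library, the summed level was 4.47 to 4.51 CPM in siCHD4 and 0.690 to 1.99 CPM in the other 5 groups, CSF1R alone was at 3.11 and 3.18 CPM in siCHD4, and the part of these markers in the siCHD4 values below was not tested. Summed markers of endothelium (VWF and CDH5) were at 8.14 to 9.63 CPM in siCTL, 9.33 to 10.6 in siHDAC2, 11.7 to 12.4 in siKDM1A, 12.3 to 12.6 in siCARM1, 13.1 to 13.7 in siGATAD2A and 14.5 to 16.7 CPM in siCHD4, and VWF was called higher than in siCTL in every knockdown but siHDAC2. Summed markers of fibroblasts (DCN, LUM and COL1A2) were at 2.63 to 2.76 CPM in siCTL, 2.52 to 2.699 in siGATAD2A, 3.91 to 4.02 in siHDAC2, 4.05 to 4.196 in siCHD4, 4.61 to 5.11 in siKDM1A and 5.96 to 6.17 CPM in siCARM1, and LUM was called higher in siCARM1, siHDAC2 and siKDM1A. The part of these markers in the differences below was not tested. Fragments with several locations, which the counts leave out, made up 5.44% to 10.6% of a library, with the highest share in siCTL replicate 1, and the part of this share in the differences from siCTL was not tested. In bulk RNA, fewer cells with a transcript and less of it per cell cannot be told apart.

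Levels of different genes were compared as FPKM, counts scaled by exon length and by the total of the library. In siCTL, the highest mean was that of IFITM3 at 14.5 ± 0.203 FPKM (SD, n = 2), followed by ISG15 at 13.9 ± 0.529, IFITM2 at 12.6 ± 0.229, IFI35 at 10.9 ± 0.830 and IFIT5 at 10.1 ± 0.456 FPKM. The libraries of IFI35 and IFIT5 overlapped in FPKM, and those of each other neighbouring pair among these 5 genes did not. The other members were lower, with CMPK2 at 3.04 ± 0.174 FPKM, IFIT1 at 1.87 ± 0.134, IFITM1 at 1.49 ± 0.528, IFIT3 at 1.24 ± 0.102 and IFIT2 at 0.648 ± 0.0659 FPKM. All 10 members passed the filter for testing, a mean over 0.5 FPKM in at least 1 group. IFIT2 passed it through siCTL and siHDAC2 alone, IFIT3 through 5 groups, and the other 8 genes exceeded it in all 6 groups.

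Each knockdown was compared with siCTL across 12830 coding genes, and the call of a gene required a fold of 1.2 or more together with an adjusted p that did not exceed 0.05. Of the 50 log2 fold changes of the 10 members, 48 were negative and 41 were called lower. By edgeR, none was called higher or was higher at an unadjusted p under 0.05, and none was called higher by DESeq2. In siCARM1, 7 members were called lower, beside 14.5% of all genes tested, and their median log2 fold change was -0.67. In siCHD4, 9 members were called lower, beside 24.9%, with a median of -1.24. In siHDAC2, 6 were called lower, beside 9.00%, with a median of -0.57. All 10 were called lower in siGATAD2A, beside 18.2%, with a median of -1.21, and 9 in siKDM1A, beside 11.5%, with a median of -0.82. The median over all genes tested lay between -0.0024 and 0.0051 in each knockdown. Since these contrasts were used to pick the genes, and all 5 share the same 2 siCTL libraries, the shares are given as background alone. Called lower in all 5 knockdowns were IFIT3, IFITM2, IFITM3, ISG15, IFI35 and CMPK2, 6 members, where the whole table held 218 such genes (1.70%). This number was 4 with DESeq2, without siCTL replicate 2 or without siHDAC2 replicate 2.

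**Figure D2:**
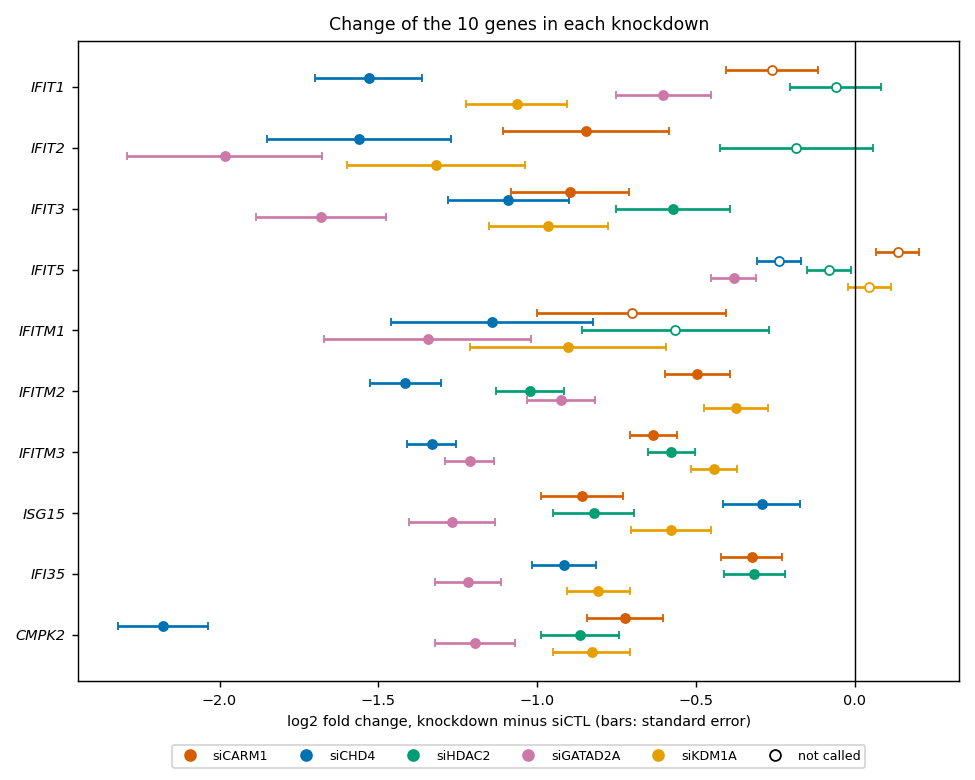
Log2 fold change of each of the 10 genes in each knockdown against siCTL (points, coloured by knockdown), with the standard error as a bar and open points where the gene was not called. The points of IFIT5 lie closest to 0, those of CMPK2 reach -2.18 in siCHD4, and the point of ISG15 in siCHD4 lies to the right of its other points.

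IFIT1, which binds RNA whose cap lacks the methyl mark of the cell's own messages, had levels in CPM, that is counts scaled to the TMM-corrected size of the library, of 8.64 and 9.61 in siCTL, 7.01 and 8.35 in siCARM1, 3.003 and 3.32 in siCHD4, 9.43 and 8.23 in siHDAC2, 6.75 and 5.27 in siGATAD2A, and 4.61 and 4.15 in siKDM1A. The siHDAC2 libraries overlapped those of siCTL, and both libraries of every other knockdown lay below both of siCTL. Its log2 fold change ± SE was -1.53 ± 0.168 in siCHD4, -1.06 ± 0.159 in siKDM1A and -0.60 ± 0.150 in siGATAD2A, all 3 called lower, and -0.26 ± 0.145 in siCARM1 and -0.06 ± 0.142 in siHDAC2, which were not called.

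IFIT2, a partner of IFIT1 and IFIT3, was the least abundant member, with 15 to 68 counts per library. Its level was 3.17 and 2.76 CPM in siCTL, 1.22 and 2.15 in siCARM1, 0.927 and 1.06 in siCHD4, 2.68 and 2.53 in siHDAC2, 0.610 and 0.885 in siGATAD2A, and 1.23 and 1.13 in siKDM1A. All 10 knockdown libraries lay below both siCTL libraries, with those of siHDAC2 nearest to them. The log2 fold change was -1.98 ± 0.306 in siGATAD2A, -1.56 ± 0.289 in siCHD4, -1.32 ± 0.280 in siKDM1A and -0.85 ± 0.261 in siCARM1, and it was -0.18 ± 0.241 in siHDAC2, where IFIT2 was not called. The value in siCARM1 was -0.46 without siCARM1 replicate 1 and -0.75 without siCTL replicate 1, and was called in neither case nor with DESeq2. Of the exonic bases of IFIT2, 12.1% are shared on the same strand with ENSG00000232110.

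IFIT3, which binds IFIT1 and stabilizes it, was at 6.23 and 7.04 CPM in siCTL, 3.16 and 4.06 in siCARM1, 3.40 and 2.85 in siCHD4, 4.48 and 4.47 in siHDAC2, 2.52 and 1.59 in siGATAD2A, and 3.24 and 3.56 in siKDM1A. No knockdown library reached a siCTL library. It was called lower in all 5 knockdowns, with log2 fold changes from -0.57 ± 0.180 in siHDAC2 to -1.68 ± 0.204 in siGATAD2A. The call in siHDAC2 was lost without siCTL replicate 2, at -0.48, without siHDAC2 replicate 2, at -0.57, and with DESeq2.

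IFIT5, an RNA-binding member of the family that acts as a monomer, did not follow the other genes. It was at 48.0 and 45.3 CPM in siCTL, 48.6 and 54.0 in siCARM1, 37.5 and 41.4 in siCHD4, 45.6 and 42.7 in siHDAC2, 35.2 and 36.4 in siGATAD2A, and 47.6 and 48.6 in siKDM1A. The siCARM1 libraries lay above both siCTL libraries, those of siCHD4 and siGATAD2A lay below, and those of siHDAC2 and siKDM1A overlapped. It was called lower in siGATAD2A alone, at -0.38 ± 0.070, while the value was -0.24 ± 0.070 in siCHD4, -0.08 ± 0.069 in siHDAC2, 0.05 ± 0.068 in siKDM1A and 0.14 ± 0.068 in siCARM1. Without siCTL replicate 2 or siCHD4 replicate 2, the value in siCHD4 was -0.29 and -0.32, and IFIT5 was called lower there too. With more counts than any other member, 823 to 1276 per library, IFIT5 had the smallest standard errors of the 10 genes.

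**Figure D3:**
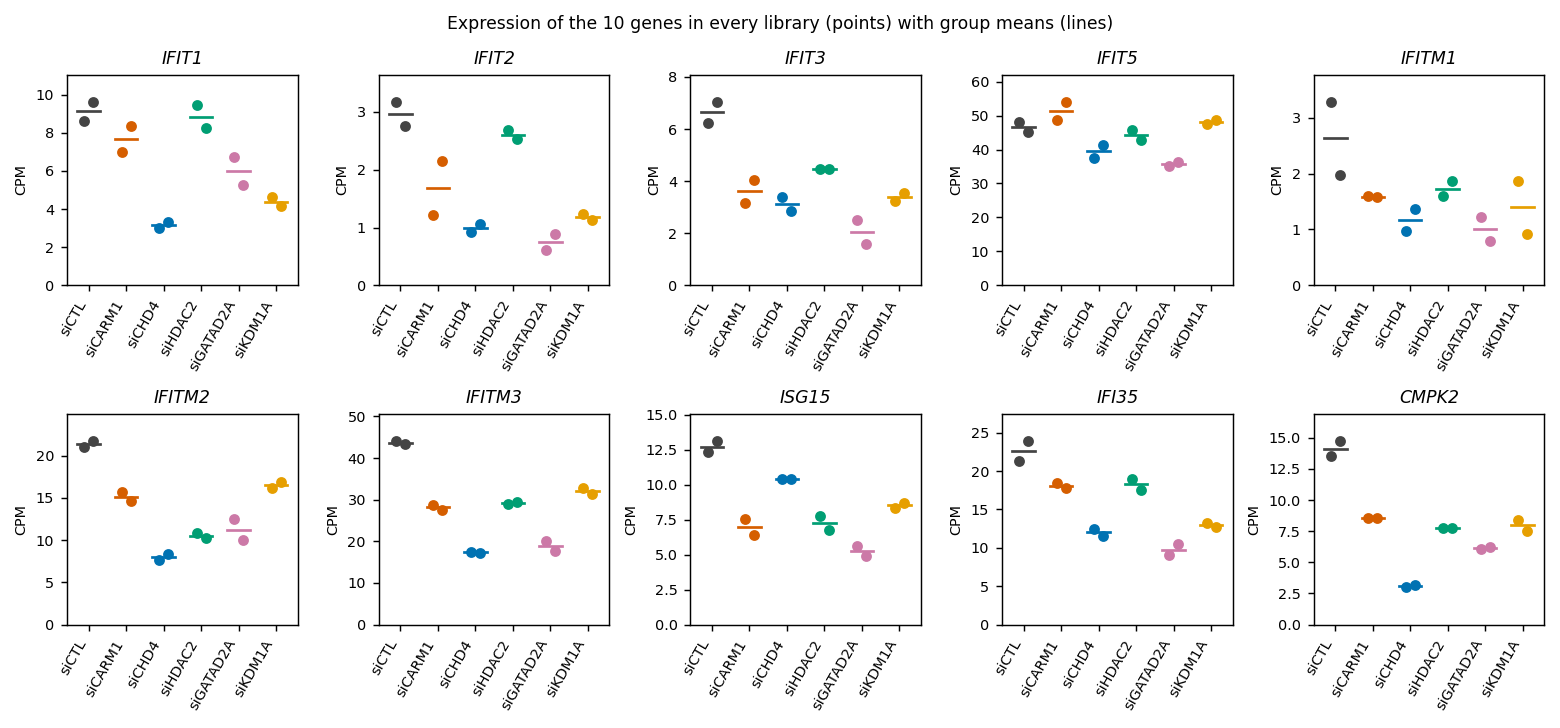
CPM of each of the 10 genes (1 panel per gene) in all 12 libraries, with a point for each library, a line at the mean of the 2 libraries of a group, and a vertical axis from 0. In the panels of IFIT1 and IFIT5 some knockdown points do not lie below both siCTL points, and in the other panels all do. The genes were picked for lower levels in the knockdowns, and the share of all genes with such a separation was not computed.

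IFITM1 restricts viruses at the plasma membrane. It had only 60 and 43 counts in siCTL, and its knockdown libraries held 18 to 50. Its CPM was 3.28 and 1.98 in siCTL, 1.60 and 1.57 in siCARM1, 0.972 and 1.36 in siCHD4, 1.60 and 1.86 in siHDAC2, 1.22 and 0.796 in siGATAD2A, and 1.87 and 0.922 in siKDM1A. Every knockdown library was below both siCTL libraries, although the siCTL libraries themselves stood far apart. The log2 fold change was -1.34 ± 0.326 in siGATAD2A, -1.14 ± 0.318 in siCHD4 and -0.90 ± 0.308 in siKDM1A, all called lower, and -0.70 ± 0.298 in siCARM1 and -0.56 ± 0.294 in siHDAC2, which were not called. Single libraries decided several of these calls. Without siCTL replicate 1 the value was -0.75 in siCHD4 and -0.52 in siKDM1A, neither called, and without siKDM1A replicate 2 it was -0.46 in siKDM1A, not called. Without siCTL replicate 2 it was -1.05 in siCARM1 and -0.91 in siHDAC2, both called. Of the 50-base stretches of the IFITM1 transcript, 55.1% also occur in other genes, IFITM2 and IFITM3 among them, against 12.02% for IFITM2 and 20.8% for IFITM3, and ENSG00000288681, which shares exonic bases with IFITM1, is also among those genes.

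IFITM2 and IFITM3 act in endosomes. IFITM2 was at 21.1 and 21.7 CPM in siCTL, 15.7 and 14.6 in siCARM1, 7.64 and 8.39 in siCHD4, 10.8 and 10.3 in siHDAC2, 12.5 and 10.0 in siGATAD2A, and 16.1 and 16.9 in siKDM1A. IFITM3 was at 44.03 and 43.4 CPM in siCTL, 28.6 and 27.6 in siCARM1, 17.5 and 17.2 in siCHD4, 29.1 and 29.5 in siHDAC2, 20.1 and 17.6 in siGATAD2A, and 32.8 and 31.5 in siKDM1A. For both genes all 10 knockdown libraries stood well below siCTL, and siCHD4 held the lowest pair. IFITM2 was called lower in all 5 knockdowns, with log2 fold changes of -1.42 ± 0.112 in siCHD4, -1.02 ± 0.108 in siHDAC2, -0.92 ± 0.106 in siGATAD2A, -0.50 ± 0.102 in siCARM1 and -0.37 ± 0.101 in siKDM1A. IFITM3 was likewise called in all 5, at -1.33 ± 0.078 in siCHD4, -1.21 ± 0.077 in siGATAD2A, -0.63 ± 0.073 in siCARM1, -0.58 ± 0.073 in siHDAC2 and -0.44 ± 0.072 in siKDM1A. Thus siHDAC2 stood beside siGATAD2A for IFITM2 but beside siCARM1 for IFITM3.

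ISG15 was at 12.4 and 13.1 CPM in siCTL, 7.58 and 6.39 in siCARM1, 10.4 and 10.4 in siCHD4, 7.78 and 6.74 in siHDAC2, 5.65 and 4.91 in siGATAD2A, and 8.36 and 8.72 in siKDM1A. All knockdown libraries were below siCTL, but the siCHD4 libraries were the highest among them, whereas the mean of siCHD4 was the lowest or next to the lowest for each of the other 9 members. Its log2 fold change was -1.27 ± 0.135 in siGATAD2A, -0.86 ± 0.129 in siCARM1, -0.82 ± 0.129 in siHDAC2, -0.58 ± 0.126 in siKDM1A and -0.29 ± 0.122 in siCHD4, all called lower. The call in siCHD4 was lost with DESeq2 and without any 1 of the 4 libraries in that contrast, where the value was -0.33 without siCTL replicate 1, -0.25 without siCTL replicate 2, -0.31 without siCHD4 replicate 1 and -0.30 without siCHD4 replicate 2.

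IFI35 was at 21.3 and 23.9 CPM in siCTL, 18.4 and 17.7 in siCARM1, 12.5 and 11.6 in siCHD4, 18.97 and 17.6 in siHDAC2, 9.07 and 10.4 in siGATAD2A, and 13.2 and 12.7 in siKDM1A. The siCARM1 and siHDAC2 libraries lay nearest to siCTL, and those of the other 3 knockdowns lay lower, all without overlap with siCTL. Its log2 fold change was -1.22 ± 0.104 in siGATAD2A, -0.91 ± 0.101 in siCHD4, -0.81 ± 0.100 in siKDM1A, and -0.32 ± 0.095 in both siCARM1 and siHDAC2, called lower in all 5. Without siCTL replicate 2 the values in siCARM1 and siHDAC2 were -0.24 and -0.23 and were not called, and in siHDAC2 the value was -0.26 without siHDAC2 replicate 2, not called either.

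CMPK2 showed the largest single difference of the 10 genes. It was at 13.5 and 14.7 CPM in siCTL, 8.57 and 8.54 in siCARM1, 3.05 and 3.19 in siCHD4, 7.73 and 7.79 in siHDAC2, 6.10 and 6.24 in siGATAD2A, and 8.41 and 7.55 in siKDM1A. The siCHD4 libraries were far below all others, and the libraries of the other 4 knockdowns formed a band between them and siCTL. The log2 fold change in siCHD4 was -2.18 ± 0.141, a 4.52-fold lower level. In the other knockdowns it was -1.20 ± 0.125 (siGATAD2A), -0.86 ± 0.122 (siHDAC2), -0.83 ± 0.121 (siKDM1A) and -0.72 ± 0.119 (siCARM1), all called lower. Of its exonic bases, 7.995% lie opposite exons of RSAD2, which had 1 to 38 counts per library on its own strand.

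Summed over the 10 members, the level was 182 and 183 CPM in siCTL, 140 and 145 in siCARM1, 138 and 132 in siHDAC2, 137 and 136 in siKDM1A, 96.9 and 101 in siCHD4, and 99.7 and 94.1 in siGATAD2A. The 4 libraries of siCHD4 and siGATAD2A were the lowest, and the 6 of the other knockdowns lay between them and siCTL.

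Whether the 5 knockdowns differed from each other can be tested without siCTL, so these comparisons do not rest on the contrasts that picked the genes. By edgeR's quasi-likelihood F test across the 5 knockdowns, 8 of the 9 members other than IFIT2 differed, beside 77.6% of all genes tested, so that differing among the knockdowns was common in the whole table. The distance from the highest to the lowest knockdown was 1.47 on the log2 scale for IFIT1 (edgeR, adjusted p = 7.3e-09), 1.45 for CMPK2 (2.0e-09), 1.11 for IFIT3 (6.0e-04), 1.04 for IFITM2 (3.9e-09), 0.97 for ISG15 (2.5e-06), 0.90 for IFI35 (2.6e-09), 0.89 for IFITM3 (4.3e-12) and 0.52 for IFIT5 (2.2e-07). For IFITM1 it was 0.78 (edgeR, adjusted p = 0.185), and none of its 10 pairs of knockdowns was called by edgeR or DESeq2, with 1 pair at an unadjusted p under 0.05 by edgeR. Its difference siHDAC2 minus siGATAD2A was called with the replicate block (0.81), with no filter on low genes (0.78) and without either siKDM1A library (0.78 each). IFIT2 is left out of the count because siHDAC2, where it was highest among the knockdowns, was 1 of only 2 groups through which it passed the filter. Its distance was 1.80 and is given as a value alone, and the numbers of pairs given next include it.

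Over the 10 pairs of knockdowns, siCHD4 and siGATAD2A stood apart from the other 3 most often. They did so over all genes tested as well, so this is not particular to the members. Against siCARM1, 8 members were called different in siCHD4 (7 lower and 1 higher there), beside 47.7% of all genes, and 8 in siGATAD2A (all lower there), beside 33.8%. Against siHDAC2, the numbers were 8 in siCHD4 (7 lower and 1 higher), beside 48.8%, and 8 in siGATAD2A (all lower), beside 29.5%. Both numbers include IFIT2, which passed the filter through siHDAC2. With the filter set at 1 FPKM, where IFIT2 was not tested, each was 7. Against siKDM1A, 6 members were called in siCHD4 (5 lower and 1 higher), beside 47.7%, and 8 in siGATAD2A (7 lower and 1 higher), beside 32.1%. In each of these 3 pairs with siCHD4 the member that was higher there was ISG15.

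Between siCARM1, siHDAC2 and siKDM1A fewer members were called, and fewer of all genes too. Between siCARM1 and siHDAC2 only IFIT2 and IFITM2 were called, 2 members, beside 19.3% of all genes, with IFIT2 higher and IFITM2 lower in siHDAC2. The call of IFIT2 was lost under 14 of the 18 alternatives that could give it, DESeq2 among them, and without siCARM1 replicate 1 its difference siCARM1 minus siHDAC2 was -0.27. Between siCARM1 and siKDM1A only IFIT1 and IFI35 were called, both lower in siKDM1A, beside 21.0%. Between siHDAC2 and siKDM1A 4 members were called, beside 14.3%, with IFIT1, IFIT2 and IFI35 lower and IFITM2 higher in siKDM1A. The calls of IFIT2 against siHDAC2 rest on a group through which it passed the filter and are given as values alone. With the filter set at 1 FPKM, where IFIT2 was not tested, 1 member was called between siCARM1 and siHDAC2. Between siHDAC2 and siKDM1A the number was then 3. Between siCHD4 and siGATAD2A 6 members were called, beside 44.8%, with CMPK2, IFIT1 and IFITM2 lower in siCHD4 and ISG15, IFIT3 and IFI35 lower in siGATAD2A.

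The opposite order of CMPK2 and ISG15 in siCHD4 and siGATAD2A was among the clearest of these differences. In siCHD4, CMPK2 was lower than in siGATAD2A by 0.98 ± 0.157 on the log2 scale (edgeR, adjusted p = 2.8e-06), whereas ISG15 was higher than in siGATAD2A by 0.97 ± 0.136 (edgeR, adjusted p = 2.8e-07). ISG15 in siCHD4 was also higher than in siHDAC2 by 0.53 ± 0.130 (edgeR, adjusted p = 7.0e-04) and than in siCARM1, where the difference siCARM1 minus siCHD4 was -0.57 ± 0.130 (edgeR, adjusted p = 3.4e-04). Its difference from siKDM1A was 0.28 ± 0.127 (edgeR, adjusted p = 0.0491) and was not called under 13 of the 19 alternatives, DESeq2 among them. CMPK2 in siCHD4 was lower than in each of the other 3 knockdowns too, with siCHD4 minus siKDM1A at -1.35 ± 0.151 (edgeR, adjusted p = 4.1e-09), siCHD4 minus siHDAC2 at -1.31 ± 0.152 (edgeR, adjusted p = 7.1e-09) and siCARM1 minus siCHD4 at 1.45 ± 0.149 (edgeR, adjusted p = 6.6e-10).

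In the order of the knockdowns, many neighbours did not differ beyond their error. IFIT2 in siHDAC2 exceeded IFIT2 in siCARM1 by 0.66 ± 0.261, the step that most alternatives did not call, and the next steps down to siKDM1A, siCHD4 and siGATAD2A were not. IFIT3 had a called step only between siCHD4 and siGATAD2A, of 0.59 ± 0.228, and this call was lost with DESeq2 (0.60), without siCHD4 replicate 1 (0.45) and without siGATAD2A replicate 2 (0.31). IFITM3 had a single called step, of 0.58 ± 0.079 between siCARM1 and siGATAD2A, and its step from siGATAD2A down to siCHD4 was 0.12 (95% interval -0.05 to 0.29). No step of IFIT5 was called, since each lay under the fold minimum. For IFI35 the step from siHDAC2 to siCARM1 was 0.01 (95% interval -0.19 to 0.21), and the step from siCARM1 to siKDM1A was 0.48 ± 0.101, which was called. With 10 pairs of knockdowns for each of the 10 members, 60 differences were called, 6 of them of IFIT2. Of the 60, 38 stayed called under every alternative that gave them a value. Over all genes tested, 14.3% to 48.8% were called in a pair.

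Across the 12 libraries, the log2 CPM of the members varied together to different degrees. Over the 45 pairs of members, Pearson's r had a median of 0.64 and ran from -0.08 for IFIT1 with ISG15 to 0.91 for IFIT2 with IFI35. Against the mean of all 10 members, r was 0.95 for IFITM3, 0.92 for IFI35 and 0.90 for IFIT3, and it was lowest for IFIT5 at 0.68 and ISG15 at 0.51. The points are 12 libraries in 6 groups with 2 shared siCTL libraries, each member is part of the mean, and the genes were picked for a shared difference from siCTL, so these values describe the libraries and have no p. The 5 other genes most like the mean of the members were ARFGAP3 (r = 0.976), SAMD11 (0.970), MYO1C (0.965), FOS (0.964) and TOB1 (0.963). None of them was on the list of interferon pathway genes described next. FOS, for example, was at 50.6 and 52.6 CPM in siCTL, 35.2 and 32.0 in siCARM1, 11.3 and 11.6 in siCHD4, 24.2 and 27.4 in siHDAC2, 10.6 and 10.7 in siGATAD2A, and 18.8 and 19.5 in siKDM1A.

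The rest of the pathway was read from a list of 107 interferon genes without the 10 members, written from textbook knowledge with earlier results of these data known. Of the 22 interferon ligand genes, none was abundant enough to be tested, 13 had no count in any library, and the highest count was 7, for IFNE. No count in a library allows up to 3 counts, which is 0.105 to 0.155 CPM depending on depth and covers counting error alone. The family relatives IFIT1B, IFITM5 and IFITM10 had at most 15 counts in any library and were not tested either.

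Of the 61 list genes tested, 14 were called lower and 2 higher in siCARM1, 23 lower and 6 higher in siCHD4, 13 lower and none higher in siHDAC2, 26 lower and 4 higher in siGATAD2A, and 14 lower and 4 higher in siKDM1A. For reading these numbers, 14.5% of all genes tested were called lower in siCARM1, 24.9% in siCHD4 and 9.00% in siHDAC2. The share called lower was 18.2% in siGATAD2A and 11.5% in siKDM1A. The shares of all genes called higher were highest in siCHD4 (24.0%), then 15.7% for siGATAD2A, 14.9% for siCARM1, 14.2% for siKDM1A and 10.6% for siHDAC2. In siHDAC2, 6 list genes were higher by edgeR at an unadjusted p under 0.05, and DESeq2 called none higher. The median log2 fold change of the 61 genes lay furthest from 0 in siGATAD2A (-0.24), followed by siCHD4 (-0.16), siCARM1 and siKDM1A (both -0.14) and siHDAC2 (-0.13), each closer to 0 than the median of the 10 members.

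The calls of the receptor genes and of the signalling chain differed between the knockdowns. Of the 5 receptor genes tested, 1 was called lower in siCARM1, 1 in siHDAC2, 2 in siKDM1A and 2 in siGATAD2A. In the other direction, 1 was called higher in siCHD4 and 2 in siGATAD2A. Those called higher, named after their values were seen, were IFNGR2 in 2 knockdowns and IFNLR1 in 1. For JAK1 the log2 fold change was -0.54 in siCARM1, -0.30 in siGATAD2A and -0.29 in siCHD4, all called lower, and it was not called in siHDAC2 (-0.13) or siKDM1A (-0.12). TYK2 was called lower in siCHD4 (-0.41) and siGATAD2A (-0.27), STAT2 in siCHD4 alone (-0.33), and neither was called in another knockdown. Of the receptor chains, IFNAR1 was called lower in siGATAD2A (-0.73) and siKDM1A (-0.40), and IFNAR2 in siGATAD2A (-0.69) and siCARM1 (-0.45). The calls of IFNAR2 rest on siCTL, which with siHDAC2 alone took it through the filter, and are given as values alone. IRF9, the DNA-binding partner of the STAT proteins, was too low to be tested, with 12 to 31 counts per library. USP18, the protease that takes ISG15 off other proteins, was called lower in siCHD4 alone (-0.78), the one of the 5 knockdowns in which ISG15 was highest. EIF2AK2, the RNA-activated kinase PKR, was called lower in siCHD4 (-0.89) and siCARM1 (-0.40).

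**Figure D4:**
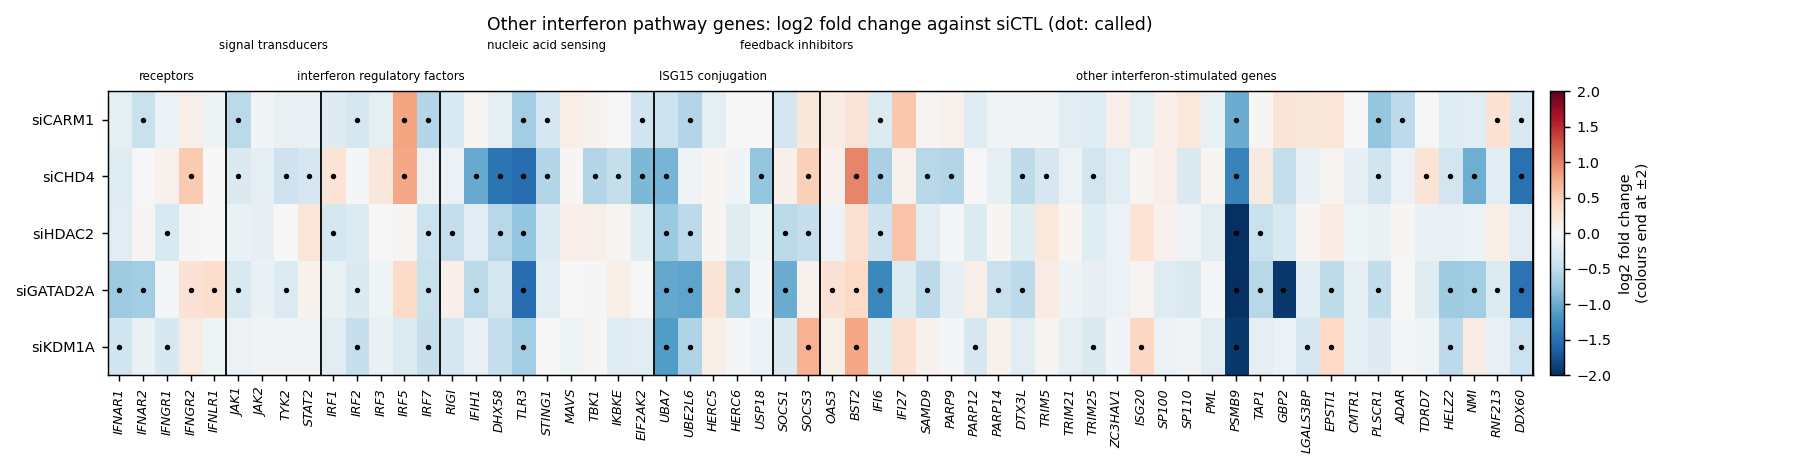
Log2 fold change against siCTL of tested interferon pathway genes without the 10 members, with a row for each knockdown and a column for each gene ordered by role, blue for lower, red for higher, colours ending at 2 in either direction, and a dot where the gene was called. TLR3 and PSMB9 are the 2 columns with a blue dot in every row, and BST2, SOCS3, IFNGR2 and IRF5 hold red dots in more than 1 row.

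TLR3 and PSMB9 were the only list genes called lower in all 5 knockdowns, beside 1.70% of all genes tested. No list gene was called higher in all 5 or was higher at an unadjusted p under 0.05 in all 5 by edgeR. TLR3, a sensor of double-stranded RNA, was at 6.84 and 7.96 CPM in siCTL and between 2.16 and 5.11 CPM in the knockdowns, with log2 fold changes of -1.53 in siGATAD2A, -1.52 in siCHD4, -0.77 in siHDAC2 and -0.69 in both siCARM1 and siKDM1A. PSMB9, a subunit of the immunoproteasome, was at 5.96 and 4.05 CPM in siCTL and between 0.619 and 2.59 CPM in the knockdowns. Its log2 fold change was -2.86 in siGATAD2A, -2.55 in siHDAC2, -1.94 in siKDM1A, -1.34 in siCHD4 and -0.99 in siCARM1, with a lower level in siHDAC2 than in siCHD4, where 9 of the 10 members had the higher mean in siHDAC2. A further 5 list genes, named after their values were seen, were called lower in 4 knockdowns: the ISG15-activating enzyme UBA7, the ISG15-conjugating enzyme UBE2L6, the transcription factor IRF7, IFI6 and DDX60. UBE2L6 and IRF7 were not called in siCHD4 (-0.07 and -0.12), UBA7 was not called in siCARM1 (-0.42), IFI6 not in siKDM1A (-0.24) and DDX60 not in siHDAC2 (-0.22). UBA7 passed the filter through siCTL and siCARM1 alone, so its calls rest on a group through which it passed. Among the list genes called higher, also named after their values were seen, BST2, which tethers virus particles to the cell, had log2 fold changes of 0.98 in siCHD4, 0.77 in siKDM1A and 0.40 in siGATAD2A. SOCS3, an inhibitor of JAK signalling, was called higher in siKDM1A (0.70) and siCHD4 (0.48) and lower in siHDAC2 (-0.46). IFNGR2 and IRF5 were each called higher in 2 knockdowns and lower in none.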

How the data were processed

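RNA was sequenced as directional, paired-end libraries. For each library, the files deposited by the authors hold raw counts per Ensembl gene, not normalized, unstranded and for either strand. The submitters' processing notes name CASAVA 1.4, STAR 2.7.10 and hg19, whereas TopHat and HOMER are named in the methods of the paper. The annotation behind the counts is not given in the sources used here. Pairs with several locations are not in the counts. Libraries were sequenced by either of 2 providers, the labels do not say which library by which, and this batch could not be checked.

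Counts of the reverse strand were used, and the opposite strand held 7.93% to 8.40% as many. For the members the opposite strand held 0 to 66 counts per library. As a share of the reverse-strand count this reached 40% for IFIT2, 28.6% for IFIT1 and 19.4% for IFIT3. It was at most 13.95% for any other member. Identifiers were matched to GENCODE release 44 on GRCh37 (58662 matched, 96.7%), which gave symbols, coordinates and exon lengths. FPKM and CPM were computed from the counts. In edgeR 4.0.16 (R 4.3.3), counts of coding genes over 0.5 FPKM in the mean of at least 1 group were fitted with TMM factors (0.968 to 1.01) in 1 quasi-likelihood model of 6 group means over all 12 libraries, with Benjamini-Hochberg adjustment over the 12830 genes. The intervals of 95% come from this model. With 2 libraries against 2, an exact permutation test could not go below a two-sided p of 0.333, so none was used. Replicates differed by more than counting error, with chi-square per degree of freedom of 1.77 to 4.97 between the libraries of a group. Correlations used log2(CPM + 0.5). The analysis was tested on simulated data. Promoter windows are those of RefSeq, on GRCh38.p14.

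The members and the lists were chosen with earlier results of these data known. Named were all 10 members, the pathway genes JAK1, TYK2, STAT2, IRF9, IFNAR1, IFNAR2, USP18 and EIF2AK2, list genes called in all 5 knockdowns in 1 direction, the 5 genes most like the members, and the targeted genes. Other names are marked in the text, and some genes of the lists are not reported here by name. PECAM1 of the endothelial markers found no match by symbol. Alternatives were DESeq2 1.42.0, DESeq2's size factors (RLE) in edgeR, a replicate block, unstranded counts, 3 other filters on low genes, no fold minimum, only the 2 groups compared, and each library left out in turn. Where this left 1 library in a group, its spread was taken from the other groups.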

Additional observations from a re-analysis of the deposited data

How the results depend on the processing

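None of the members' values that were called changed sign under an alternative. Of 1184 values of the members under the alternatives (log2 fold changes and distances among knockdowns), 1156 stayed on their side of the thresholds, 18 lost their call and 10 gained one; of 1890 values between pairs of knockdowns, 1802 stayed, 80 lost and 8 gained. Members called lower numbered 6 to 8 in siCARM1, 7 to 10 in siCHD4, 4 to 6 in siHDAC2, 9 to 10 in siGATAD2A, 8 to 9 in siKDM1A and 4 to 6 in all 5 knockdowns, and 8 to 9 differed among the knockdowns; with FPKM over 1, IFIT2 was not tested and gave no value. For the interferon list without the members, DESeq2 called 2 genes higher in siKDM1A, unstranded counts, a filter of 1 count in any library and filterByExpr over all biotypes each called 1 higher in siHDAC2, and FPKM over 1 left 1 higher in siCARM1. Leaving out single libraries gave 8 to 15 list genes lower in siHDAC2, with the 8 without siCTL replicate 2. No fold minimum gave 23 lower and 6 higher in siCARM1, 23 lower and 4 higher in siHDAC2, and 22 lower in siKDM1A. Deviations of same-numbered libraries correlated between -0.18 and 0.17 over the 15 pairs of groups. These weak correlations cannot decide whether same-numbered libraries were prepared together. The replicate block gave 8 members lower in siCARM1 in place of 7, by adding IFITM1 at -0.72, 15 list genes lower in siCARM1 in place of 14, and the same numbers as without the block for every other count against siCTL and among the 5 knockdowns. Between pairs of knockdowns the block lost IFIT2 in siCARM1 minus siHDAC2 (-0.65, 1 member called in place of 2) and ISG15 in siCHD4 minus siKDM1A (0.28, 5 in place of 6), and added IFITM1 in siHDAC2 minus siGATAD2A (0.81, 9 in place of 8). Alternatives, the block included, moved the members called in a pair by over 1.5 times in 5 of the 10 pairs. For siCARM1 and siHDAC2, 14 alternatives left 1 in place of 2, among them FPKM over 1, where IFIT2 was not tested. Leaving out siGATAD2A replicate 2 left 5 in place of 8 for siCARM1 and siGATAD2A and for siHDAC2 and siGATAD2A, leaving out siHDAC2 replicate 1 left 5 in place of 8 for the latter pair, leaving out siGATAD2A replicate 1 left 5 in place of 8 for siGATAD2A and siKDM1A, and leaving out siCHD4 replicate 1 left 3 in place of 6 for siCHD4 and siKDM1A. IFITM1 and IFIT2, with the fewest counts (at most 60 and 68 per library), had the largest standard errors of the 10 members.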
